A study of Mus musculus with 12 samples.

Results

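The interferon-responsive cells of the treated brains were the cells with UMIs (unique molecular identifiers, 1 per counted transcript) of at least 3 of the 8 interferon-stimulated genes Ifit1, Ifit2, Ifit3, Isg15, Rsad2, Usp18, Oasl2 and Irf7. They were chosen by these values, so the level of the 8 genes in responsive against other cells is described below and not tested. The share of cells that met the rule was tested between libraries. That share rests on the same values and depends on the depth of the cells. Of the 27439 cells kept in the 8 libraries of treated mice, 795 met this rule, or 2.90%. With the 4 libraries of treatment-naive cells, 30775 cells were kept in the series. A cell was kept if it had at least 200 detected genes and at most 10% of its UMIs on mitochondrial genes. The responsive cells of each library were compared across genes with the other cells of the same library that had at least 2000 UMIs, 6753 cells in all.

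All treated mice were C57BL/6J recipients that had been conditioned with busulfan, a myeloablative agent. They were dosed with Lin- hematopoietic stem/progenitor cells (HSPCs) transduced with the lentiviral vector LVV.GFP, either intravenously (i.v.) or intracerebroventricularly (i.c.v.). Every mouse, whatever its route, later also received non-transduced total bone marrow i.v. The brains of 1 female and 1 male per route were dissociated enzymatically 12 to 13 months after dosing, and this interval cannot hold together with the 22 to 28 weeks of age in the labels. CD45+ CD11b+ CX3CR1+ cells were sorted into GFP+ microglia-like cells (MLCs), the progeny of transduced donor cells, and GFP- cells, the endogenous microglia. Each mouse thus gave a GFP+ and a GFP- library, and each sort was measured in 4 mice. The GFP- gate can also hold progeny of donor cells without the vector. The 4 treatment-naive libraries, of neurons, astrocytes, microglia and PBMCs (peripheral blood mononuclear cells), came from 1 C57BL/6J animal by the study's description, of 8 to 12 weeks by the labels.

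Type I interferons are secreted by cells that sense viral or displaced nucleic acid and act through the receptor IFNAR, whose kinases JAK1 and TYK2 activate a complex of transcription factors that includes STAT2 and IRF9. The complex binds interferon-stimulated response elements and switches on a large set of genes, whose products degrade viral RNA, block its translation, modify proteins with ISG15 and load MHC class I. Small groups of microglia with such a program have been described in the healthy, aging and injured brain.

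Promoters of 5 genes are shown because they carry the motif that this pathway is known to use, and because their genes span the rule (Isg15, Ifit3), the chemokines (Cxcl10) and the interferon-inducible GTPases (Irgm1, Gbp2). Each line gives the 250 bases before the transcription start, 5′ to 3′ on the strand of the gene, from RefSeq on GRCm38.p6. Capitals mark the letters GAAANNGAAA, the core of the interferon-stimulated response element, or TTTCNNTTTC, the same letters on the other strand, and neighboring matches can overlap.
Isg15, chr4:156200819-156201068, minus strand: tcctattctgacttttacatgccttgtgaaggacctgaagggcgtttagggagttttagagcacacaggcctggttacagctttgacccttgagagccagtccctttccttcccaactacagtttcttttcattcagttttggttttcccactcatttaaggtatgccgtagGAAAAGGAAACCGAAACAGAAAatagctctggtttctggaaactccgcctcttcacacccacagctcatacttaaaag
Ifit3, chr19:34583279-34583528, plus strand: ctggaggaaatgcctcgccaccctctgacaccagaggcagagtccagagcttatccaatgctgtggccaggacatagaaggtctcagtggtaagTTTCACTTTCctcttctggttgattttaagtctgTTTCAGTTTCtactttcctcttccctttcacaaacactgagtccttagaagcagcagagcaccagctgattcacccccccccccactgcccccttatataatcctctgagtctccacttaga
Cxcl10, chr5:92348890-92349139, minus strand: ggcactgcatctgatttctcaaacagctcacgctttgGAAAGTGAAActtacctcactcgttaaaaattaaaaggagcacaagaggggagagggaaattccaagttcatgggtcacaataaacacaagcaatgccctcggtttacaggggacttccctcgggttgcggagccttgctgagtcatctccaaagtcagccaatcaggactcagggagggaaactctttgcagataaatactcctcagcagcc
Irgm1, chr11:48871421-48871670, minus strand: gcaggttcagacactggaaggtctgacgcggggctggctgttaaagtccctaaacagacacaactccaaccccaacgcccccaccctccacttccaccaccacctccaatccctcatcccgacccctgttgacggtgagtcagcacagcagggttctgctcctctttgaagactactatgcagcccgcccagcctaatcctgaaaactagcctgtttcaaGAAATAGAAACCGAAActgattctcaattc
Gbp2, chr3:142620413-142620662, plus strand: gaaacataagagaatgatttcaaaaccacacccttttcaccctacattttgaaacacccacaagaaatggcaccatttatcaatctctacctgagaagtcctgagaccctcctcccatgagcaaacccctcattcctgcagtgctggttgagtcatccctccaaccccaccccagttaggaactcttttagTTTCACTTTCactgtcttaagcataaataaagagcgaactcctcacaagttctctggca

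The promoter of Isg15 held 3 overlapping matches that began 78 to 66 bases before the start, and that of Ifit3 held 2, which began 156 and 122 bases before it. Irgm1 had 2 overlapping matches within 30 bases of the start. In windows from 250 bases before to 50 bases after the start, the motif occurred in 3.99% of all 27025 genes with a RefSeq window. It occurred in 13.1% of the genes called higher in responsive cells below (80 of 612 with a window) and in 30.9% of those called over 2-fold higher (43 of 139). Among the genes called lower it was found in 2.41% (9 of 373), and among the tested genes that were not called in 3.25% (214 of 6591). By gene list, described further on, 16 of 39 antiviral effectors, 9 of 10 guanylate binding proteins and immunity-related GTPases, 5 of 19 MHC class I genes, 1 of 8 chemokines and 0 of 15 homeostatic microglia genes had a match. Of the rule genes, 4 of 7 with a window had a match, and genes induced with them are not independent of how the cells were chosen. The higher rate among genes called higher was thus set in part by that choice. The letters TTCNNNGAA, also searched, occurred in 10.5% of genes called higher, 8.85% of those called lower and 7.95% of those not called. These matches are a description of letters and do not show binding.

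Responsive cells were found in every treated library. In the GFP+ libraries they made up 9.99% of the cells of the i.v. female (334 of 3344, 95% exact interval 8.99% to 11.1%), 6.00% of the i.v. male (136 of 2266, 5.06% to 7.06%), 2.29% of the i.c.v. female (60 of 2621, 1.75% to 2.94%) and 3.08% of the i.c.v. male (109 of 3536, 2.54% to 3.71%). In the GFP- libraries of the same mice, in the same order, the shares were 1.31% (35 of 2675), 0.703% (32 of 4555), 1.31% (57 of 4355) and 0.783% (32 of 4087). Every GFP+ library was thus above every GFP- library. The mean was 5.34% ± 3.49 in GFP+ and 1.03% ± 0.328 in GFP- libraries (SD, n = 4 each), a difference of 4.31 percentage points (exact permutation test over libraries, two-sided, p = 0.029, the smallest that 4 against 4 can give). With the libraries paired by mouse, the exact p was 0.125, the smallest that 4 mice can give, and the share was higher in GFP+ cells in 4 of 4 mice. The difference was 2.77 percentage points without the GFP+ i.v. female. The intervals cover counting error only, and free RNA in droplets can add UMIs to cells that do not express a gene.

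The difference was smaller at equal depth. The median was 1058 to 3499 UMIs per kept cell in the GFP+ libraries and 842 to 1034 in the GFP- libraries. When every cell of at least 2000 UMIs was thinned to 2000, the shares were 4.79%, 4.42%, 0.999% and 3.51% in the GFP+ libraries, in the order above, and 1.91%, 1.16%, 1.84% and 1.67% in the GFP- libraries. The difference of the means was then 1.79 percentage points (exact p = 0.143, higher in GFP+ in 3 of 4 mice), and in the i.c.v. female the GFP+ share lay below the GFP- share. This thinning left out 1321 to 2426 cells per GFP+ library and 2205 to 4036 per GFP- library. The i.v. GFP+ libraries had a mean share of 7.99% at the cells' own depth and the i.c.v. ones 2.69%, and with 2 mice per route no exact test can go below p = 0.333.

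**Figure D1:**
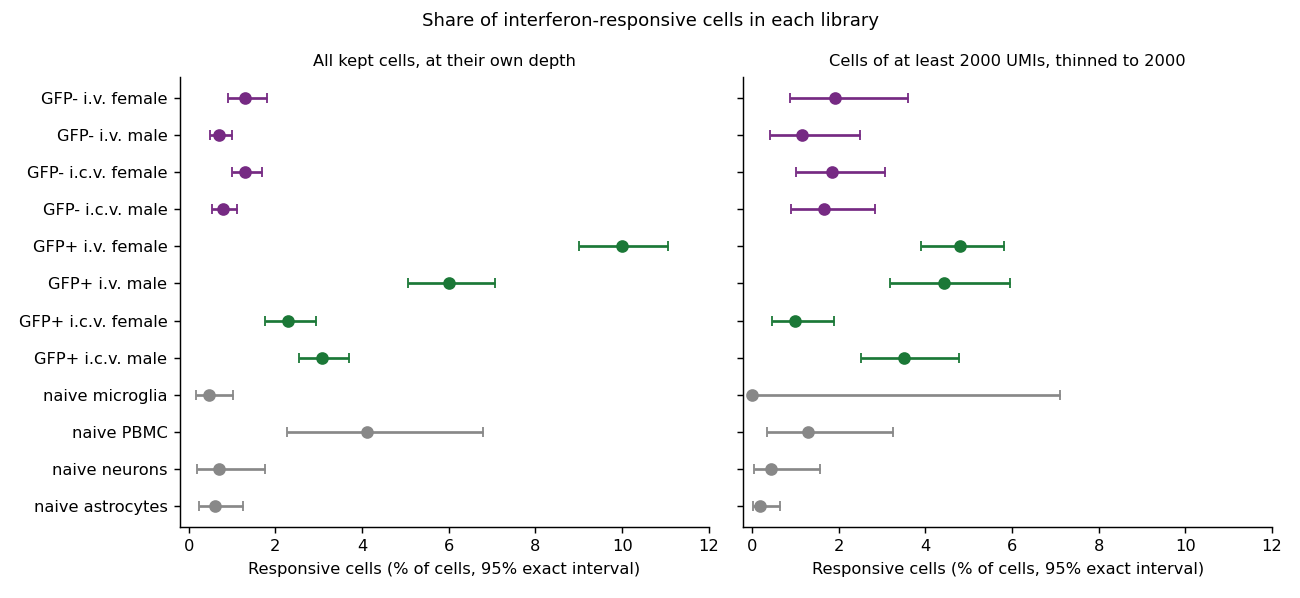
Share of responsive cells (x axis, percent of cells) in each of the 12 libraries (rows), with 95% exact intervals, at the cells' own depth (left) and in cells of at least 2000 UMIs thinned to 2000 (right). Green points are GFP+, purple GFP- and gray treatment-naive libraries. At their own depth all 4 GFP+ libraries lie above all 4 GFP- libraries, whereas at 2000 UMIs the i.c.v. female's GFP+ library (0.999%) lies below all 4 GFP- libraries.

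In the treatment-naive libraries, 6 of 1274 microglia met the rule (0.471%, 0.173% to 1.02%), as did 4 of 575 cells sorted as neurons (0.696%), 7 of 1146 astrocytes (0.611%) and 14 of 341 PBMCs (4.11%, 2.26% to 6.79%). Only 50 of the naive microglia had 2000 UMIs, and 0 of them met the rule after thinning, which allows a share of up to 6.00%. Naive microglia were shallower, with a median of 425 UMIs per kept cell against 842 to 3499 in the treated libraries. With stricter limits of 500 detected genes and a 5% mitochondrial share, 5 of 142 naive microglia met the rule (3.52%, 1.15% to 8.03%). The GFP- libraries were then at 1.12% to 2.43% and the GFP+ libraries at 3.69% to 12.8%. The order of naive and GFP- microglia thus depended on the filter. The naive microglia differed from the treated ones in depth, age and treatment, and the effects of these cannot be told apart.

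The rule divided a gradient. Of the kept cells, 22512 had a UMI of none of the 8 genes, 3342 of 1 and 790 of 2, while 325 had UMIs of 3, 159 of 4, 122 of 5, 89 of 6, 56 of 7 and 44 of all 8. Just outside and just inside the threshold, the summed level of 49 other antiviral effectors was 4894 to 5996 CPM (counts per 1000000 UMIs of the cells summed) in GFP- cells with 2 rule genes and 5974 to 8782 CPM in those with 3. In GFP+ cells it was 5157 to 6470 CPM with 2 rule genes and 6551 to 8241 CPM with 3. Over the 4 libraries of a sort, the ranges overlapped in GFP- cells and lay next to each other in GFP+ cells. Cells with 0 rule genes held 2442 to 3016 CPM in GFP- and 3494 to 4129 CPM in GFP+ libraries. The cells with all 8 held 20629 and 23025 CPM in the 2 GFP+ libraries with at least 5 such cells. They held 20715 CPM in the 1 such GFP- library, the i.c.v. female with 5 cells.

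**Figure D2:**
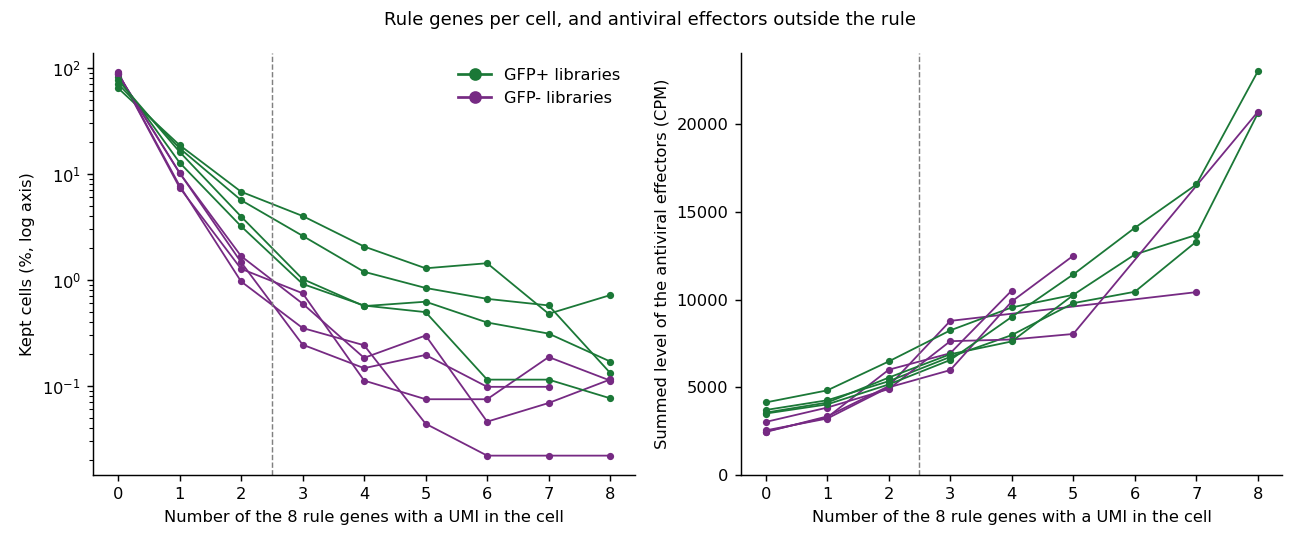
Left, percent of kept cells (log axis) by the number of the 8 rule genes with a UMI, 1 line per treated library, for numbers with at least 1 cell. Right, summed level of 49 antiviral effectors outside the rule (CPM) for numbers with at least 5 cells in a library. The dashed line marks the threshold of 3 genes. The level climbs from 2442 to 4129 CPM at 0 genes to 20629 and 23025 CPM at 8 genes in 2 GFP+ libraries and 20715 CPM in 1 GFP- library.

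Among the rule genes, Isg15, which encodes a ubiquitin-like protein modifier, was detected in 78.0% of the responsive cells and Oasl2, of the 2'-5' oligoadenylate synthetase family, in 68.1%. Ifit3 was detected in 64.7%, Irf7, the regulator that amplifies interferon production, in 64.5%, and Usp18, the protease that removes ISG15, in 55.7%. Ifit2 was found in 46.8%, Rsad2 (viperin) in 34.5% and Ifit1 in 27.9%. The markers Ifit2, Ifit3, Isg15 and Irf7 had a summed level of 984 to 1388 CPM in responsive GFP- cells and 1082 to 1310 CPM in responsive GFP+ cells, where the other cells had 38.6 to 74.4 and 53.2 to 101 CPM. These contrasts follow from the choice of the cells.

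The responsive cells were deeper than the rest. Their median was 5564.5 to 10754 UMIs per library against 4104 to 8582 in the other cells of at least 2000 UMIs, and 92.3% of them had at least 2000. Their median mitochondrial share was 1.68% to 2.90% against 2.08% to 2.90%. Any pair of libraries shared 0 to 8 cell barcodes. An EGFP UMI was found in 12.5% to 30.0% of the responsive cells of the GFP+ libraries (50 of 334, 17 of 136, 18 of 60 and 19 of 109) and in 0 of 156 of the GFP- libraries, against 10.8% to 20.4% and 0% of the other cells.

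By markers, most responsive cells were of the sorted type. UMIs of at least 3 of 8 microglia markers were found in 84.4% to 100% of the responsive GFP- cells and in 63.2% to 98.3% of the responsive GFP+ cells, against 96.0% to 98.4% and 80.6% to 98.7% of the other cells. At least 3 of 8 markers of CNS-associated macrophages (CAMs) were found in 34.3% to 66.7% of the responsive GFP- cells against 12.0% to 45.5% of the others, a higher share in 4 of 4 libraries, and in 52.2% to 93.3% against 67.0% to 81.1% in GFP+ cells, higher in 2 of 4. At least 3 of 8 monocyte markers were found in 19.2% of the responsive cells of the GFP+ i.v. female (64 cells, against 4.21% of the others) and 20.6% of the GFP+ i.v. male (28 cells, against 6.76%). In both GFP+ i.c.v. libraries 0 cells of either state had them. There 0 of 60 and 0 of 109 responsive cells allow shares of up to 5.00% and 2.75%, taken as 3 divided by the number of cells. One of these markers, Ms4a4c, is itself interferon-inducible, and without it the i.v. shares were 5.39% and 3.68% against 1.58% and 1.75%. At least 3 of 8 dendritic cell markers were found in 5.69% of the responsive cells of the GFP+ i.v. female (19 cells, against 2.16% of the others), in 12.5% of the GFP+ i.v. male (17 cells, against 5.63%), in 0 cells of either state of the GFP+ i.c.v. libraries and in 1 responsive GFP- cell. At least 3 of 8 astrocyte markers were found in 12.5% of the responsive cells of the GFP- i.v. male (4 cells, against 2.02% of the others), in 5.88% of the GFP+ i.v. male (8 cells, against 2.38%) and in 0% to 1.75% of the other 6 libraries. At least 3 neuron or erythroid markers were found in 0 responsive cells.

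Across 9580 genes outside the rule, 789 were higher in the responsive cells (8.24% of those tested) and 504 were lower (5.26%), in edgeR's quasi-likelihood test on sums per library with the library as a block. Of these, 182 were over 2-fold higher and 78 over 2-fold lower, 425 were higher in all 8 libraries and 326 lower in all 8. Adjusted p values below come from this test, fold changes are log2 values with their standard errors, and levels are CPM of summed counts, in which fewer expressing cells and less RNA per cell cannot be told apart. The 8 rule genes were kept out. Genes that interferon induces together with the rule genes are not independent of how the cells were chosen, so the direction of the interferon lists below is a description of the chosen cells and no separate evidence of a response. Without cells carrying monocyte markers, 522 genes were higher and 356 lower, and 509 and 338 of these were among the genes above. With every cell thinned to 1000 UMIs, 230 were higher and 158 lower, of which 220 and 134 were among them.

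Of the gene groups outside the rule, leaving aside the markers of cell types, the antiviral effectors had the highest median. Of 46 tested, some of which are also counted in the signaling and sensing lists, 45 were higher and 0 lower, with a median log2 fold change of 1.90, against -0.02 over all genes. Oasl1, an RNA-binding member of the oligoadenylate synthetase family, was at 23.7, 60.1 and 93.1 CPM (lowest, median and highest of 8 libraries) in responsive cells and at 0, 2.63 and 4.63 CPM in the others. The ranges did not overlap, and the log2 fold change was 4.47 ± 0.19 (adjusted p = 3.35e-13). Mx1, a GTPase that blocks viral replication, was at 32.6, 80.5 and 96.0 CPM against 3.16, 4.56 and 7.67 CPM. It rose in 8 of 8 libraries without overlap (3.68 ± 0.21, adjusted p = 1.40e-11). Ifitm3, which restricts the entry of viruses through membranes, was at 691, 1402 and 1922 CPM against 130, 180 and 599 CPM, again without overlap (2.42 ± 0.13, adjusted p = 1.30e-11). Bst2 (tetherin), which holds budding virus at the cell surface, was already at 286 to 1347 CPM in the other cells and reached 1074 to 2459 CPM in the responsive cells. Its ranges overlapped, with the other GFP+ cells above the other GFP- cells, and its rise was smaller (1.18 ± 0.15, adjusted p = 7.31e-06). Trim21, an intracellular antibody receptor, was the 1 effector not called (0.14 ± 0.32, adjusted p = 0.852).

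Signal transduction split between the transcription factors and the receptors. Of 14 tested genes, 4 were higher and 0 lower (median 0.10). Stat2, a transcription factor of the type I interferon signal, was at 34.4, 71.1 and 103 CPM in responsive cells and between 13.8 and 16.6 CPM in the others. All 8 responsive values were above all others (2.07 ± 0.13, adjusted p = 2.49e-10). Irf9, which binds DNA in the same complex, also rose in 8 of 8 libraries without overlap (1.07 ± 0.10, adjusted p = 1.58e-07). Socs1, a feedback inhibitor of JAK kinases, rose by 1.12 ± 0.20 (adjusted p = 4.41e-04), in 6 of 8 libraries. The receptor chain Ifnar1 was at 47.4, 108 and 137 CPM against 61.2, 99.7 and 130 CPM, with wide overlap (0.01 ± 0.09, adjusted p = 0.974). Ifnar2 (0.20 ± 0.10), Ifngr1 (-0.26 ± 0.09, adjusted p = 0.0540), Jak1 (-0.22 ± 0.09) and Tyk2 (-0.22 ± 0.19) were not called. Of 7 interferon regulatory factors tested besides Irf7, Irf9, Irf1 (0.43 ± 0.12) and Irf2 (0.26 ± 0.08) were higher. Irf1 was not called without the GFP- i.v. female, the GFP+ i.v. female or the GFP+ i.c.v. female (adjusted p up to 0.0688), and Irf2 lost its call in most other settings. The myeloid factors Irf8 (-0.03 ± 0.08) and Irf5 (-0.06 ± 0.09) were not called.

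Most sensors of nucleic acid were higher. Of 23 tested, 16 were higher and 0 lower (median 1.06). Zbp1, a sensor of Z-form nucleic acid, was at 65.1, 92.4 and 152 CPM in responsive cells against 2.84, 7.44 and 17.3 CPM. The groups were fully separate (3.39 ± 0.14, adjusted p = 3.05e-13). The cytosolic RNA sensors Ifih1 (MDA5, 2.18 ± 0.15), Dhx58 (LGP2, 2.13 ± 0.18) and Ddx58 (RIG-I, 1.60 ± 0.12) rose in 8 of 8 libraries, as did Ifi213 (3.47 ± 0.18), of the AIM2-like receptor family. Mb21d1, which encodes the DNA sensor cGAS, rose by 0.59 ± 0.12 (adjusted p = 0.00254). Among the adaptors, Mavs, which relays the RNA signal, differed by -0.15 ± 0.20, and Tmem173 (STING), which relays the signal of cGAS, by -0.19 ± 0.09 (adjusted p = 0.212). The endosomal RNA receptor Tlr7 was not called either (-0.12 ± 0.10). Its adaptor Myd88 was called higher near the threshold, in 7 of 8 libraries (0.40 ± 0.13, adjusted p = 0.0469), and lost the call when any 1 library other than the GFP+ i.c.v. female was left out (adjusted p up to 0.171).

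Of 12 tested guanylate binding proteins and immunity-related GTPases, which attack the vacuoles of intracellular pathogens, 11 were higher and 0 lower (median 1.42). Ifi47 was at 40.5, 91.9 and 148 CPM against 4.96, 11.5 and 24.1 CPM, without overlap (2.85 ± 0.15, adjusted p = 6.59e-12). Irgm1, whose promoter is shown above, was at 55.3, 75.2 and 136 CPM against 16.4, 18.2 and 26.4 CPM, also without overlap (2.03 ± 0.12, adjusted p = 4.13e-11). Gbp2 rose in 8 of 8 libraries with overlapping ranges (2.39 ± 0.18, adjusted p = 3.36e-09). Tgtp2 (3.83 ± 0.36) has a near-identical copy, Tgtp1, so its reads may be divided between them and its value is uncertain. Gbp8 was not called (0.72 ± 0.27, adjusted p = 0.0894).

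**Figure D3:**
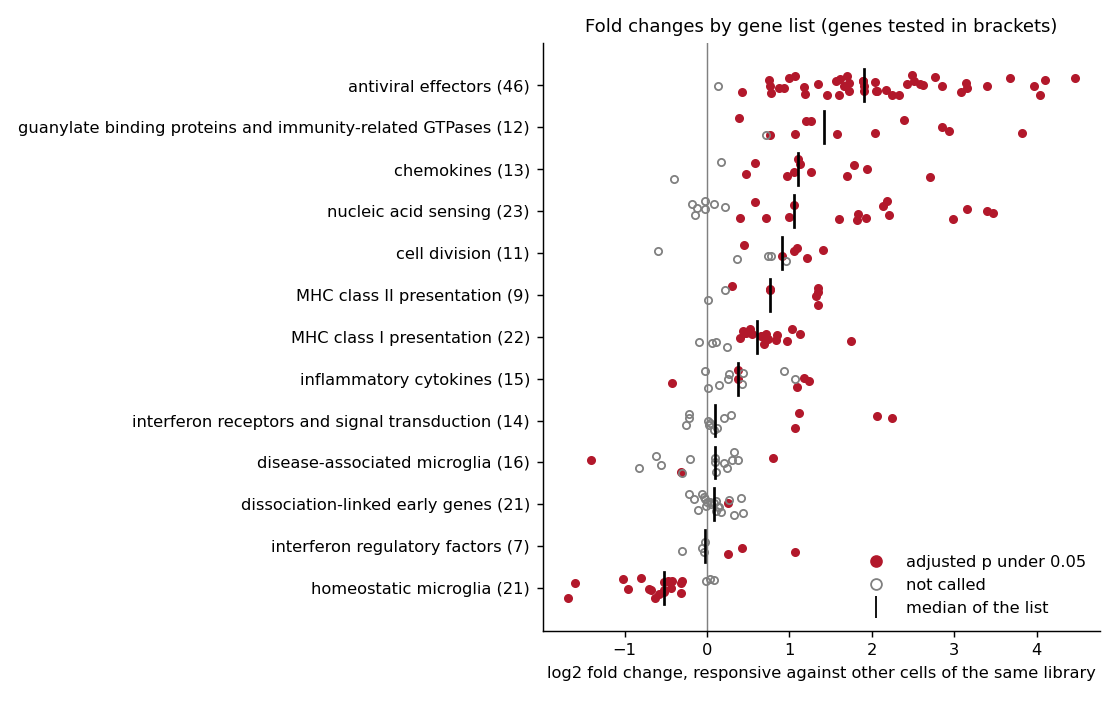
Log2 fold change of responsive against other cells of the same library (x axis) for each tested gene of 13 lists (rows, ordered by median, with the number tested). Red points passed an adjusted p under 0.05, open points did not, and black bars are medians, from 1.90 for the antiviral effectors to -0.53 for homeostatic microglia genes.

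Among chemokines, which attract leukocytes, 11 of 13 tested were higher and 0 lower (median 1.11). Cxcl10, the ligand of CXCR3 on T and NK cells, was at 204, 570 and 1474 CPM in responsive cells and at 31.8, 102 and 158 CPM in the others. The ranges did not overlap (2.71 ± 0.15, adjusted p = 9.34e-12). Its transcripts lay in few cells: 12.0% to 33.8% of the responsive cells of a library had a UMI of it (4.97% to 17.8% of the others) and the top 5 cells held 63.5% to 100% of its UMIs. Ccl12, a ligand of CCR2, was at 761, 1555 and 3376 CPM against 289, 428 and 598 CPM. It was spread more widely, with a UMI in 50.7% to 78.9% of the responsive cells and in 42.4% to 60.2% of the others. Its ranges did not overlap (1.95 ± 0.18, adjusted p = 6.13e-08), and the top 5 cells still held 29.1% to 81.7% of its UMIs. Ccl2, also a ligand of CCR2, rose in 7 of 8 libraries (1.13 ± 0.13, adjusted p = 2.98e-06) and Ccl4, a chemokine of activated macrophages, in 8 of 8 (1.11 ± 0.15, adjusted p = 1.71e-05). The top 5 cells held 35.9% to 96.1% of the Ccl2 and 21.9% to 91.9% of the Ccl4 UMIs. The share of cells with a Ccl4 UMI was lower among responsive cells in the GFP- i.v. male (65.6% against 75.6%) and the GFP- i.c.v. female (80.7% against 81.8%), and higher in the other libraries. Ccl5 (1.70 ± 0.53, adjusted p = 0.0356) ranged from 3.39 to 465 CPM in the responsive cells and was not called when the i.v. male, i.c.v. female or i.c.v. male GFP+ cells, or the i.c.v. female GFP- cells, were left out 1 library at a time (adjusted p up to 0.109). Ccl6 and Ccl24 were not called.

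MHC genes were higher by smaller factors. Of 22 tested genes of class I presentation, 18 were higher and 0 lower (median 0.61). Nlrc5, the transactivator of class I genes, rose by 1.75 ± 0.23 (adjusted p = 1.05e-05) and the peptide transporter Tap1 by 1.12 ± 0.11 (adjusted p = 2.87e-07), both in 8 of 8 libraries. The nonclassical class I gene H2-T23 was at 431, 538 and 725 CPM against 220, 256 and 397 CPM. Its ranges did not overlap (0.97 ± 0.08, adjusted p = 8.64e-09). B2m, the light chain common to class I molecules, was at 2478, 3155 and 3730 CPM against 1687, 2425 and 2952 CPM, with overlap, and rose in 8 of 8 libraries (0.45 ± 0.09, adjusted p = 0.00115). Of 9 class II genes, 7 were higher and 0 lower (median 0.77). Cd74, the invariant chain, was at 1204, 7491 and 26359 CPM against 410, 2785 and 13245 CPM. The libraries differed more from each other than the states did, with the i.v. GFP+ libraries highest, and within every library the responsive cells were higher (1.34 ± 0.11, adjusted p = 1.80e-08). Without the library as a block, 0 of the 9 class II genes were called. The share of cells with dendritic cell markers, given above, was also higher among responsive cells of both GFP+ i.v. libraries. These cells were left out, along with other marked cells, in the fit without cells carrying markers of other cell types. Over the 23 other settings, which include that fit, the class II median was 0.718 to 1.04, and 0 to 7 of these genes were called higher. The part of dendritic cells by themselves was not tested.

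Homeostatic microglia genes were lower. Of 21 tested, 0 were higher and 18 lower (median -0.53), and all 8 cell type markers of microglia were lower. P2ry12, the purinergic receptor that guides microglial processes, was at 170, 388 and 895 CPM in responsive cells and at 328, 667 and 1531 CPM in the others. It was lower in 8 of 8 libraries, with ranges that overlap between libraries (-0.96 ± 0.12, adjusted p = 7.61e-06). Sall1, a transcription factor of microglial identity, was at 0, 17.1 and 81.3 CPM against 4.78, 57.3 and 174 CPM. Here too every library moved down (-1.69 ± 0.19, adjusted p = 1.49e-06), and both sorts did, from very different levels. Tmem119 (-0.68 ± 0.11, adjusted p = 1.22e-04) and the growth factor receptor Csf1r (-0.31 ± 0.08, adjusted p = 0.0109) were lower in 8 of 8 libraries. The complement genes C1qa, C1qb and C1qc were not called (C1qa 0.04 ± 0.09). Every cell thinned to 1000 UMIs gave 16 genes lower, the GFP- libraries alone 17 and the fit without cells with monocyte markers 17, and without the library block 0 were called. Over the 23 other settings, which include a fit without cells carrying markers of other cell types, the median of the list was -0.668 to -0.397. The microglia markers summed to 5553 to 9410 CPM in responsive GFP- cells (others 9217 to 14232) and 2740 to 7802 CPM in GFP+ cells (others 4978 to 9718). The part of each other cell type by itself in the difference was not tested.

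**Figure D4:**
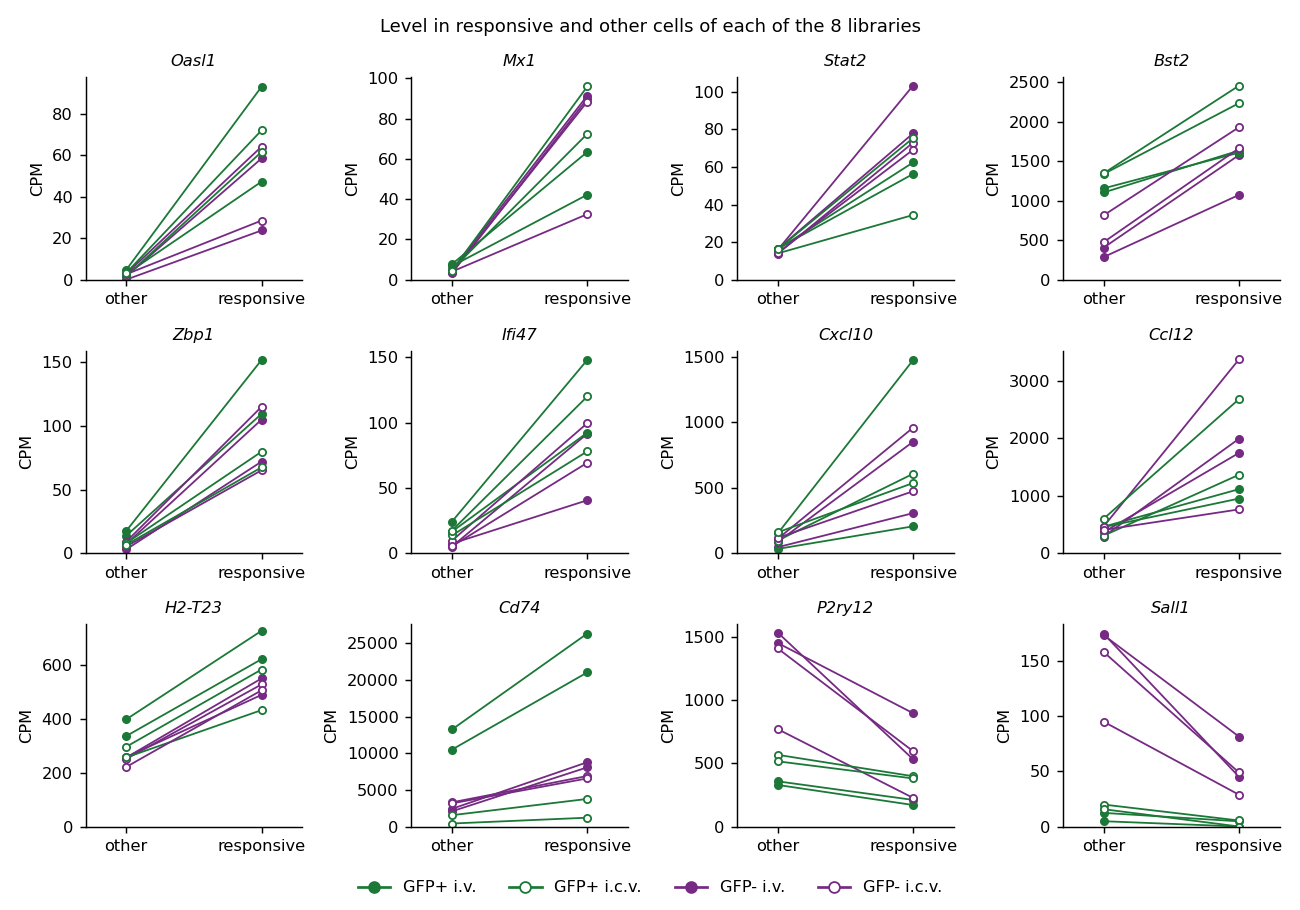
Level (CPM, axes from 0) of 12 genes in the other and the responsive cells of each of the 8 treated libraries, joined by a line per library. Green is GFP+, purple GFP-, filled points i.v. and open points i.c.v.; Oasl1, Mx1, Stat2, Zbp1, Ifi47, Cxcl10, Ccl12 and H2-T23 do not overlap between the states, and P2ry12 and Sall1 fall in all 8 libraries.

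Few genes of the disease-associated and dissociation-linked groups were called, whereas part of the inflammatory and cell division genes were higher. Of 16 tested genes of disease-associated microglia, 1 was higher and 2 lower (median 0.10). The receptor kinase Axl was the one that rose (0.81 ± 0.14, adjusted p = 4.80e-04), and Gpnmb (-1.41 ± 0.44, adjusted p = 0.0359) and Ctsd (-0.32 ± 0.10, adjusted p = 0.0459) were lower. Both missed the threshold in most other settings of the fit. These counts pool the sorts. The summed level of the list, in which Apoe is a large part, was higher in responsive cells in 4 of 4 GFP- libraries. Among GFP+ libraries it was higher in 1 of 4. Of 21 early genes that tissue dissociation induces, 1 was higher and 0 lower (median 0.08), the chaperone gene Hsp90aa1 (0.26 ± 0.08, adjusted p = 0.0445), whose call was also lost in most other settings. Of 15 tested inflammatory cytokine genes, 5 were higher and 1 lower (median 0.38). Il1b rose in 8 of 8 libraries (1.23 ± 0.10, adjusted p = 1.27e-08) and Il1a was lower in 8 of 8 (-0.43 ± 0.10, adjusted p = 0.00681), while Tnf was not called (0.25 ± 0.22, adjusted p = 0.544). Of 11 tested cell division genes, 6 were higher and 0 lower (median 0.91). The replication helicase gene Mcm6 rose in 8 of 8 libraries (1.09 ± 0.21, adjusted p = 0.00105), whereas Top2a, Pcna, Mki67, Birc5 and Ube2c rose in 4 to 7 and were not called without the GFP- i.c.v. female, among others. Top2a reached only 0 to 48.7 CPM in responsive cells, and 0 of the 11 were called when cells were thinned to 1000 UMIs, where 2 were tested.

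Markers of other cell types moved as well. Of 4 tested monocyte markers, 3 were higher, Ms4a4c (2.06 ± 0.19), Ccr2 (1.27 ± 0.16) and S100a4 (0.90 ± 0.21), the last in 4 of 8 libraries, at -0.13 without the cells that carried monocyte markers and not called without the GFP+ i.v. female (adjusted p = 0.0756). The summed level of all 8 monocyte markers, tested or not, was 110 to 510 CPM in responsive GFP- cells (others 60.1 to 354). In responsive GFP+ cells it was 81.1 to 1300 CPM (others 29.1 to 446). Of 5 tested neutrophil markers, 4 were lower, among them S100a8 (-2.95 ± 0.42, adjusted p = 5.10e-05). The choroid plexus transcript Ttr was lower (-3.12 ± 0.42, adjusted p = 1.62e-05) and did not rise in 7 of 8 libraries. It was at 0.12 without cells carrying markers of other cell types. The 3 tested endothelial markers were higher (Cldn5 3.04 ± 0.59, Itm2a 3.22 ± 0.69 and Flt1 2.05 ± 0.34), Cldn5 and Itm2a in 5 of 8 libraries, and 6 responsive cells in all carried at least 3 endothelial markers. Without cells carrying markers of other cell types, monocytes aside, 750 genes were higher and 458 lower in the responsive cells. Of these, 695 and 420 were among the genes called in the main fit. The part of each cell type by itself in the other differences was not tested.

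Outside the lists, the largest increases by the rule for naming genes included Ly6a, which encodes the surface antigen Sca-1, at 18.1, 90.1 and 180 CPM against 2.50, 6.44 and 14.9 CPM. The ranges did not overlap (3.71 ± 0.19, adjusted p = 3.97e-12). Ifi206, of the AIM2-like receptor family, rose by 3.71 ± 0.15 (adjusted p = 3.05e-13). Ifit3b (4.85 ± 0.25) is a near-identical copy of the rule gene Ifit3 and its value is uncertain. The largest decreases included Csmd3 (-2.17 ± 0.20, adjusted p = 7.26e-08), Khdrbs3 (-2.07 ± 0.27) and Cd209f (-1.74 ± 0.29). They were higher in none of the 8 libraries, and each was at 0 CPM in the lowest responsive library.

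Transcripts of the interferons themselves were rare and concentrated. Of 16 ligand genes, 13 had 0 UMIs in the responsive cells, and Ifnz and Ifng had 1 UMI each. At 7243538 UMIs, 0 UMIs allow up to 0.414 CPM for a gene, taken as 3 counts. Ifnb1, the type I interferon that myeloid cells make on sensing nucleic acid, had 294 UMIs in 23 of the 795 responsive cells (2.89%) and 29 UMIs in 17 of the 6753 other cells (0.252%). The share was higher in responsive cells in 7 of 8 libraries, the exception being the GFP- i.v. female (0 of 35 against 1 of 441). In the GFP+ i.v. male, 12 of 136 responsive cells had a UMI of Ifnb1, and in the GFP+ i.c.v. female 1 of 60 did, with 111 UMIs. Of the 8 cells with at least 5 Ifnb1 UMIs, 7 were responsive, and a pair of them held 223 of the 294 UMIs. The first, from the GFP+ i.v. male, had 112 UMIs of Ifnb1, 420 of Cxcl10, 1303 of Ccl4, 92 of Ccl5 and 171 of Tnf among 27575, and 0 of Mx1. The second, from the GFP+ i.c.v. female, had 111 of Ifnb1, 276 of Cxcl10, 645 of Ccl4, 47 of Ccl5 and 17 of Tnf among 11659, and 17 of Mx1. These are values of single cells without replicates, and Ifnb1 did not pass the filter on low counts in the fit of responsive against other cells.

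Whether the responsive state differed between MLCs and endogenous microglia was tested as an interaction. Of 10359 genes, the log2 difference between responsive and other cells was larger in GFP+ than in GFP- libraries for 32 (0.309%) and smaller for 49 (0.473%). Of 48 tested antiviral effectors, 2 were called (Bst2 and Ms4a6b, both smaller in GFP+), and of 13 GTPases, 14 chemokines, 22 class I, 9 class II and 21 homeostatic genes 0 were called. Smaller in GFP+ were also 3 of 26 nucleic acid sensing genes (Ifi203, Ifi204 and Mndal, all of the AIM2-like receptor family), 3 of 16 disease-associated genes (Apoe, Axl and Cd63) and 2 of 8 CAM markers (Mrc1 and Ms4a7), and larger were 1 of 14 signaling genes (Socs3) and 2 of 8 neutrophil markers (S100a8 and S100a9). Of 3 tested plasmacytoid dendritic cell markers 1 was smaller (Cox6a2), and of 5 oligodendrocyte markers 1 was larger. Cxcl10 (-0.21 ± 0.27, adjusted p = 0.83) did not pass the test. A p that misses the threshold does not show that the sorts responded alike. Without the GFP+ i.v. female, the counts fell to 6 and 18.

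For Apoe, Bst2, Axl and Mrc1, the other GFP+ cells were above the other GFP- cells, and the difference was smaller in GFP+. Apoe, which encodes a lipid carrier, was at 27701 ± 13439 CPM in other and 49582 ± 16192 CPM in responsive GFP- cells, and at 79673 ± 14785 and 66707 ± 23185 CPM in GFP+ cells (SD, n = 4 libraries each). It was higher in responsive cells in 4 of 4 GFP- and 1 of 4 GFP+ libraries (interaction -1.19 ± 0.16, adjusted p = 0.00094). Bst2 went from 495 ± 227 to 1562 ± 358 CPM in GFP- and from 1237 ± 124 to 1985 ± 428 CPM in GFP+ cells (-1.04 ± 0.15, adjusted p = 0.00233). Axl went from 85.7 to 225 CPM and from 207 to 275 CPM (-1.02 ± 0.16, adjusted p = 0.00352). In each of these, responsive GFP- cells came nearer to the level of GFP+ cells. Mrc1, a mannose receptor and CAM marker, was at 267 CPM in other and 578 CPM in responsive GFP- cells and at 537 and 496 CPM in GFP+ cells (-1.25 ± 0.20, adjusted p = 0.00373), and Ms4a7, another CAM marker, had an interaction of -0.94 ± 0.20, which was not called without the GFP- i.v. female, the GFP+ i.v. female, the GFP- i.v. male or the GFP- i.c.v. male (adjusted p up to 0.0892). The share of cells with CAM markers, given above, moved with these values in the GFP- libraries, and its part in them was not tested. In the other direction, Socs3, a feedback inhibitor of cytokine signals, went from 203 to 301 CPM in GFP+ and from 376 to 281 CPM in GFP- cells (1.01 ± 0.18, adjusted p = 0.0109). Without the GFP+ i.v. female its adjusted p was 0.0522.

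**Figure D5:**
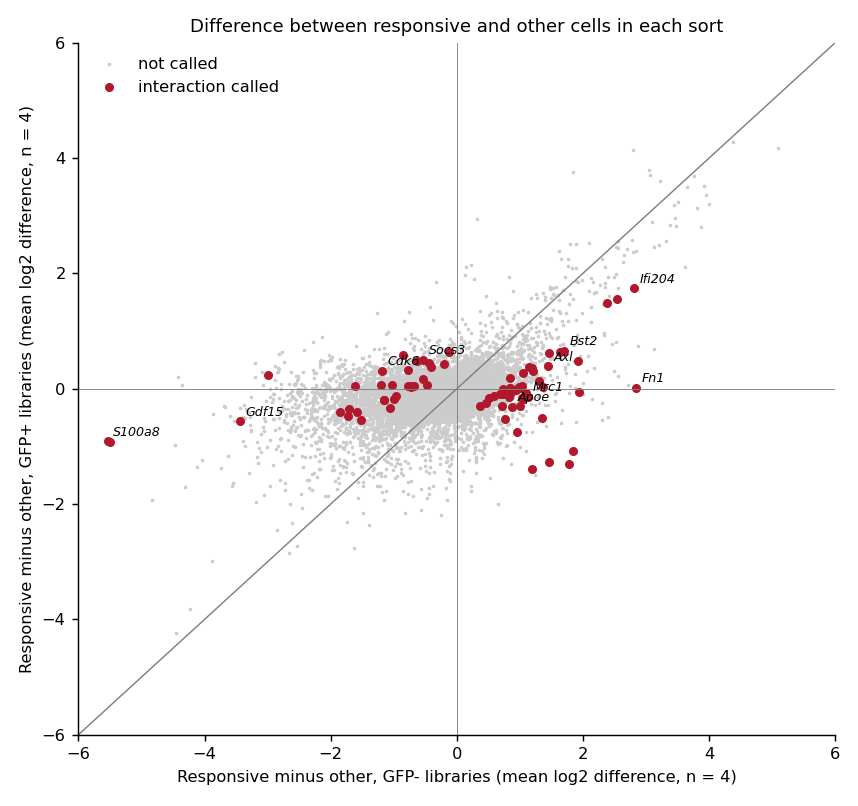
Mean log2 difference of responsive minus other cells over the 4 GFP- (x axis) and the 4 GFP+ libraries (y axis) for the 10359 genes of the interaction test. Red points passed it, some of which are named, and the diagonal marks equal differences; Apoe, Axl, Bst2 and Mrc1 lie below the diagonal on the right, Socs3 and Cdk6 above it on the left.

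The responsive cells themselves were compared between the sorts over 5534 genes. EGFP alone was higher in GFP+ cells (0.0181% of those tested), with 23.2 to 43.2 CPM against 0 CPM in all 4 GFP- libraries. The cells were sorted on GFP, so the direction of EGFP was set by the sort. Lower in GFP+ were 5 genes (0.0904%), and 284 genes had an unadjusted p under 0.05. With the mouse as a block, 0 genes were higher and 8 lower, and EGFP had an adjusted p of 0.0571. EGFP also missed the threshold whenever any 1 library was left out, with adjusted p values of 0.0594 to 0.180. Csf1, a growth factor for microglia, was at 72.8, 49.2, 41.8 and 42.4 CPM in responsive GFP- cells of the i.v. female, i.v. male, i.c.v. female and i.c.v. male, and at 7.40, 9.43, 3.46 and 7.50 CPM in the GFP+ cells of the same mice. The sorts did not overlap (-2.76 ± 0.31, adjusted p = 0.00629). Sall1, scaled within this comparison, was at 79.5, 44.8, 27.2 and 46.2 CPM in GFP- and at 4.58, 0, 5.19 and 0 CPM in GFP+ cells, in the same order, again without overlap (-4.10 ± 0.62, adjusted p = 0.0411). Ldhb (-1.76 ± 0.23), Ecscr (-2.96 ± 0.46) and the fructose transporter Slc2a5 (-3.42 ± 0.54) were the others. The study gives Sall1 and Csf1 as higher in GFP- microglia than in MLCs when all sorted cells were compared. The lower level of Sall1 and Csf1 in GFP+ cells is thus not particular to the responsive state. Csf1 stayed below the threshold in every setting in which it was tested, whereas Sall1, Ldhb, Ecscr and Slc2a5 each missed it without the GFP+ i.v. male, the GFP+ i.c.v. female or the GFP- i.c.v. male, and leaving out 1 library gave 1 to 9 lower genes. The genes fitted here included the 8 rule genes, which chose the cells in both sorts and for which no result is given. Of 46 antiviral effectors, 0 were called (median 0.05 against 0.02 over all genes), but these move with the rule genes, so the count does not show that the sorts were alike.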

How the data were processed

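Droplet-based single-cell RNA-seq was analysed in 12 libraries, 8 of treated mice and 4 treatment-naive. The deposited values are raw UMI counts per gene and barcode, made by the authors with Cell Ranger (3.1.0 per the file headers) on mm10 with the vector sequence added. Each library was deposited with 2500 to 5056 barcodes, and no doublet caller was run. UMIs were summed per library for responsive and other cells. Libraries with at least 10 responsive cells entered, which all 8 did. Sums were tested with edgeR 4.0.16 (quasi-likelihood, TMM, filterByExpr, R 4.3.3) with Benjamini-Hochberg adjustment, and called at an adjusted p under 0.05. The model of state had the library as a block, that of the sorts an interaction term, and the comparison of responsive cells between sorts no block. Shares were tested with exact permutation tests (Python 3.11.15, scipy 1.17.1), two-sided. The scripts were tested on simulated data.

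GFP+ and GFP- libraries shared a mouse by their labels, so the samples are paired by animal. Deviations of same-mouse libraries from their sort means correlated at 0.549, -0.0702, 0.0986 and -0.0512 in the i.v. female, i.v. male, i.c.v. female and i.c.v. male over 2767 genes. The 4 mice are the replicates of a sort, and each treatment-naive type is 1 library without replicates, all of 1 animal.

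The members and the gene lists were chosen with earlier results of these data known. Named genes were all members of 15 gene lists and cell type marker lists, and for each fit the 10 largest called changes per direction that reached 20 CPM in the group with the greater level and went 1 way in every library (no overlap between sorts). Alternatives were the number of rule genes, depth, cell filters, DESeq2 1.42.0, the filter on low counts, the block and leaving out each library. Those without cells with monocyte markers and without the i.v. GFP+ libraries were chosen after seeing the data. A cell counted as carrying markers of a type with UMIs of at least 3 of them. Some members of the lists are counted in them but not reported here by name.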

Additional observations from a re-analysis of the deposited data

Results flagged for a closer look

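For the following genes the change with the responsive state differed between the sorts in the interaction test. Values are the log2 difference in GFP+ minus that in GFP- libraries. Apoe, Bst2, Axl, Mrc1, Ifi204, Cox6a2 and Mid1 stayed called whichever library was left out, and each of the others lost its call without at least 1 library. A check of 48 groups of 4 values for a library far from the other 3 gave 0 flags. That count does not mean that no single library weighs on a gene below, as the values of S100a8 show.

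Among genes with a smaller difference in GFP+ cells, Apoe (-1.19), Bst2 (-1.04), Axl (-1.02), Mrc1 (-1.25) and Ifi204 (-1.02) are members of the lists, as are Ifi203 (-0.93), Mndal (-0.81), Ms4a6b (-0.82), Cd63 (-0.72) and Hspa1b (-1.05). Cox6a2 (-3.21) is on the marker list of plasmacytoid dendritic cells. The others were Fn1 (-2.99), Hgsnat (-1.70), Gdf3 (-1.49), Sash1 (-1.31), Fam213a (-1.29), Igfbp4 (-1.28) and Igf1 (-1.26). Fn1, which encodes fibronectin, was at 37.5 CPM in responsive and 3.63 CPM in other GFP- cells, and at 5.34 and 4.83 CPM in GFP+ cells. Igf1, a growth factor, was at 80.7 and 45.9 CPM in GFP- and at 72.4 and 100 CPM in GFP+ cells.

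Genes with a larger difference in GFP+ cells were S100a8 (3.55), Gdf15 (1.85), Rapgef1 (1.67), Cdk6 (1.59), Col27a1 (1.44), Mid1 (1.37), Numb (1.28), Nav2 (1.27), Fam102b (1.19), Dtx4 (1.16), Socs3 (1.01) and Egr1 (0.61). S100a8, which encodes a neutrophil and monocyte protein, was at 23.6 CPM in responsive and 944 CPM in other GFP- cells, and at 139 and 518 CPM in GFP+ cells. The other GFP- cells ranged from 6.95 CPM in the i.v. male to 3304 CPM in the i.c.v. female, and without the latter library the adjusted p was 0.0708. Both GFP+ i.c.v. libraries were at 0 in both states. Its difference was 0.70 and not called without cells carrying monocyte markers. Cdk6, a cell cycle kinase, was lower in responsive cells in 4 of 4 GFP- and higher in 4 of 4 GFP+ libraries.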

How the results depend on the processing

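With every cell thinned to 1000 UMIs, 230 genes were higher and 158 lower in responsive cells, and without the cells with the most UMIs 283 and 196. Without monocyte-marked cells 522 were higher, without the i.v. GFP+ libraries 492 were higher and 284 lower, and in GFP+ libraries alone 226 were lower. Without the library as replicate block the counts were 214 and 84, and with sums per mouse and the mouse as replicate block 1215 were higher. Leaving out 1 library gave 596 to 807 higher and 357 to 481 lower genes.

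For the interaction, larger and smaller differences in GFP+ numbered 4 and 9 with at least 4 rule genes, 15 and 13 when thinned to 1000 UMIs, 61 and 152 without monocyte-marked cells, 49 and 108 with DESeq2 and 78 and 152 without the filter, and 11 were larger with at least 2 rule genes. Leaving out 1 library gave 6 to 28 larger and 18 to 66 smaller. The larger count was 6 and the smaller 18 without the GFP+ i.v. female, 16 and 25 without the GFP- i.v. male, and 9 and 20 without the GFP- i.c.v. male. The larger count was 20 without the GFP+ i.v. male, 13 without the GFP- i.c.v. female, 18 without the GFP+ i.c.v. female and 14 without the GFP+ i.c.v. male, and the smaller count was 32 without the GFP- i.v. female.

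Between the sorts, higher and lower genes numbered 0 and 3 with at least 4 rule genes, 2 and 13 with at least 2, 0 and 0 when thinned to 1000 UMIs, 0 and 3 without monocyte-marked cells, 8 and 52 without the filter, and 0 and 8 with the mouse as replicate block. DESeq2 called 15 lower, and leaving out 1 library gave 0 higher and 1 to 9 lower. The difference in share was 0.249, 0.758 and 1.79 percentage points in cells thinned to 500, 1000 and 2000 UMIs, 4.31 (p = 0.125, exact) with the mouse as replicate block, and 2.77 to 5.33 without 1 library (each exact permutation p = 0.0571).

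Directions reversed for Irgm2 (-0.022 in GFP- libraries alone), S100a4 (-0.13 without monocyte-marked cells), Klrd1 (-0.081 without them, -0.28 with DESeq2), Ttr (0.12 without cells with markers of other cell types) and the interaction of S100a9 (-0.45 without monocyte-marked cells). Thinned cells tested fewer genes, 4936 against 9580. The other causes were not tested. The smallest sum of responsive cells, of the GFP- i.v. male, held 208324 UMIs of 32 cells, which limits what low genes can show.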

Other observations

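The level of some other programs changed with the number of rule genes per cell, in cells thinned to 2000 UMIs. GFP+ cells with a UMI of 0, 1, 2, 3 and at least 4 rule genes held a median over libraries of 8.37, 11.5, 18.4, 25.2 and 35.5 UMIs of the antiviral effectors per cell. Genes of MHC class I presentation, which load peptides for CD8+ T cells, were at 16.5, 17.9, 20.8, 22.2 and 24.7 UMIs in the same cells. Homeostatic microglia genes were at 105, 94.4, 91.3, 88.9 and 73.2 UMIs. This fall of the medians was not steady within libraries, since the GFP+ i.v. male went from 56.3 UMIs with 2 rule genes to 73 with 3, and the GFP+ i.c.v. male from 92.1 with 3 to 104 with at least 4. Early genes that dissociation induces showed no such course, at 44.9, 48.3, 45.7, 45.1 and 55.7 UMIs. The values with 3 rule genes come from 3 libraries and the others from 4.

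In GFP- cells the antiviral effectors were at 5.56, 10.1, 16.5 and 21.9 UMIs per cell with 0, 1, 2 and 3 rule genes, and at 33.8 with at least 4. The homeostatic genes were at 150, 121, 114 and 99.6 UMIs with 0 to 3, but at 137 with at least 4. The dissociation-linked genes were at 53.1, 57.3, 49.4, 47 and 50.5 UMIs. The last 2 groups of cells are small, with 18 cells of 3 libraries and 14 cells of 2 libraries. These values are descriptions, since the rule genes ordered the cells.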
